A study of Homo sapiens with 18 samples.

Results

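The genes described here are 10 genes of 13q14, the band of chromosome 13 that is deleted more often than any other in chronic lymphocytic leukemia (CLL). They were taken by symbol from the table of gene counts: DLEU1, DLEU2, DLEU7, TRIM13, SPRYD7, KCNRG, RCBTB1, RNASEH2B, KPNA3 and RB1. All 10 were among the 56609 gene symbols of the table, and all 10 passed the filter of at least 10 counts summed over the libraries, which left 31872 genes for testing. DLEU7 passed it with 12 counts and KCNRG with 110, so little can be measured for either.

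The RNA came from 3 EBV-positive cell lines derived from CLL, namely HG3 and PCL12, whose IGHV genes are described as unmutated, and MEC2, whose IGHV genes are mutated. Each line was sequenced after 4 h with ODN-2006 at 2.5 μg/ml, a synthetic CpG oligonucleotide that activates the DNA receptor TLR9, and without it. There were 3 libraries in each of the 6 groups, 18 in all. The low state of DLEU1, DLEU2 and TRIM13 described below rests on 1 line, HG3, so it cannot be told apart from the other ways in which HG3 differs from MEC2 and PCL12. DNA was not analysed here, so absent DNA and silent DNA cannot be told apart either.

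In brief background, 13q14 deletions in CLL differ in length but usually take out a small shared stretch that holds DLEU2, the start of DLEU1 and a pair of microRNAs, miR-15a and miR-16-1. These microRNAs are cut from the DLEU2 transcript and lower BCL2 and several cyclins. Longer deletions reach towards the centromere and can take out RB1, the retinoblastoma tumour suppressor.

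Library totals lay between 20382943 and 67308932 counts. A count of 0 allows up to 3 counts, or 0.0429 to 0.155 CPM (counts relative to the TMM-scaled library size) depending on the library, and these limits cover counting error only. All 7 B-cell markers checked reached a mean of 1 CPM in each line, while T-cell markers summed to at most 2.40 CPM and monocyte markers to at most 1.91 CPM in any library. The 2 CLL surface markers set HG3 apart. CD5 ran from 21.9 to 69.6 CPM in HG3 and reached at most 0.414 CPM in MEC2 and 1.35 CPM in PCL12. FCER2 ran from 1451 to 3248 CPM in HG3, from 285 to 509 CPM in MEC2 and from 303 to 744 CPM in PCL12. The 4 epithelial markers all reached a mean of 1 CPM in each line, and their sum ran from 5.36 to 31.3 CPM in HG3, from 7.41 to 32.9 CPM in MEC2 and from 6.48 to 28.9 CPM in PCL12. Of 3 fibroblast markers 1 reached that mean, COL1A1, and their sum was higher in HG3 (27.1 to 81.7 CPM) than in PCL12 (5.22 to 14.9 CPM), with MEC2 between them (10.002 to 37.97 CPM). COL1A2 stayed at or below 0.462 CPM in every library, DCN was at 0 in all HG3 libraries, and the part of these markers in the results was not tested. Reads on mitochondrial genes were plentiful in replicate 2 of unstimulated HG3 (20.2%) and in replicate 2 of MEC2 after CpG (19.7%). The PCL12 libraries of replicates 2 and 3 stood apart: of 45 transcripts typical of MEC2 and nearly missing from the first PCL12 replicate, they held 29.0% to 31.3% of what MEC2 held (median over genes). In PCL12 replicate 1, by which these genes had been chosen, the median was 2.26% to 2.36%. Whether they hold RNA of MEC2 was not tested. PCL12 replicate 1 is therefore given apart for the 10 genes, whose 3 values a group are in the order of the replicates, and the tests on PCL12 are also given without PCL12 replicates 2 and 3. Without them each PCL12 group is 1 library, assumed to vary like the libraries of the other groups, so a call lost there does not show a smaller difference, and the fold change is given beside it. The labels do not say whether replicates were separate cultures, so the P values measure the spread between libraries, which may be technical.

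The microRNAs of the region are shown first because they are the part of it with the best known action. Sequences and positions are those of RefSeq on GRCh38.p14, capitals mark the seed (bases 2 to 8, which pair with target mRNAs), and both mature sequences lie on the minus strand of chromosome 13 in introns of DLEU2.
miR-15a-5p, chr13:50049167-50049188: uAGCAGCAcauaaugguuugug
miR-16-5p, chr13:50049027-50049048: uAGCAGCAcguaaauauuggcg
A second pair with the same seed lies on chromosome 3 within SMC4, a gene of the condensin complex. It holds another gene for miR-16-5p, with the same mature sequence as above, and miR-15b-5p.
miR-15b-5p, chr3:160404607-160404628: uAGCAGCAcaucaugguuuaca
The libraries were made from long RNA, and mature microRNAs were not measured. The hairpin symbol MIR15A had 8 counts over all libraries, of which 7 were in PCL12, 1 in MEC2 and 0 in HG3. MIR16-1 had 0 counts. The symbol MIR3613, another hairpin within DLEU2, had 1 count in HG3, 11 in MEC2 and 31 in PCL12.

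DLEU2 and DLEU1 are long non-coding RNAs on opposite strands. RefSeq gives DLEU2 a far and a near promoter. From the far start, which is position 0 in the distances below, DLEU2 runs across the start of DLEU1, while from the near one both are transcribed away from each other. The near promoter shares 227 bases with the promoter of DLEU1, so the windows of 250 bases before to 50 after a start are printed for DLEU1 and for the far start of DLEU2. Capitals mark matches, on either strand, to CATGCGC (the core of the NRF1 motif), CACGTG (an E-box) and TATAAA, the letters of the TATA box.
DLEU1, chr13:50081919-50082218, plus strand: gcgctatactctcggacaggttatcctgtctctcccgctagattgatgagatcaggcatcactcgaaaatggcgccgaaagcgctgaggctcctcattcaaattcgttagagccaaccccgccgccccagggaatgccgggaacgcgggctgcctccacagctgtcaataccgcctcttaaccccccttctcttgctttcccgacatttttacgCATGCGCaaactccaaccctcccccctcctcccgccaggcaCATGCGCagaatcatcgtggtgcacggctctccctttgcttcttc
DLEU2, chr13:50125492-50125791, minus strand: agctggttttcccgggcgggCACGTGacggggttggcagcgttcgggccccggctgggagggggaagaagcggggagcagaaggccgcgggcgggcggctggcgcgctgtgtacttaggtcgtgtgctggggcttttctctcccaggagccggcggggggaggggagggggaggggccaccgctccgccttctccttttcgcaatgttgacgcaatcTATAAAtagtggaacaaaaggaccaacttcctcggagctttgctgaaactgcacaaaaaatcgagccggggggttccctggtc
The DLEU1 window held 2 matches to the NRF1 core, and both lie in the part shared with DLEU2. The far DLEU2 window held 1 match to the E-box and 1 to the TATA box. Of 35116 promoter windows of this length, 4.43% held the NRF1 core, 7.26% the E-box and 11.5% the TATA box, and a match is a description of the letters only.

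HG3 held almost no transcript of DLEU2 (ENSG00000231607, chr13:49956670-50125720 in GENCODE 44 on GRCh38), the host of miR-15a and miR-16-1. Its level in unstimulated HG3 was 0.374, 0.103 and 0.421 CPM in replicates 1, 2 and 3 (17, 2 and 16 counts), and after CpG it was 0.340, 0.333 and 0.284 CPM. In MEC2 it was 9.34, 6.001 and 16.9 CPM without stimulation and 11.1, 15.3 and 20.8 CPM after CpG. PCL12 replicate 1 held 5.55 CPM without and 9.34 CPM with CpG, and replicates 2 and 3 held 5.53 and 15.6 CPM without and 14.2 and 12.9 CPM with it. All 6 HG3 libraries lay below all 12 libraries of the other lines, and MEC2 and PCL12 overlapped. The mean of HG3 was 2.34% of that of MEC2 and 4.15% of that of PCL12 replicate 1. In unstimulated cells DLEU2 was higher in MEC2 than in HG3 by a Log2FC of 5.07 ± 0.56 (SE, n = 3 libraries a group, adjusted p = 3.88e-07 by edgeR's quasi-likelihood test) and in PCL12 by 4.79 ± 0.55 (adjusted p = 7.69e-07). Without PCL12 replicates 2 and 3 the second value was 4.12 (adjusted p = 7.37e-05). DLEU2L, a copy of DLEU2 on another chromosome with which reads may be shared, had mean levels of 0.720 CPM in HG3, 1.83 CPM in MEC2 and 1.55 CPM in PCL12.

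DLEU1 (ENSG00000176124, chr13:50082169-50906856) was close to 0 in HG3. The unstimulated HG3 libraries held 0, 0 and 1 counts, and the CpG-stimulated ones 5, 0 and 0, which is at most 0.131 CPM. MEC2 stood at 1.72, 0.735 and 2.17 CPM without stimulation and at 0.887, 1.31 and 4.20 CPM after CpG. PCL12 replicate 1 stood at 3.56 CPM in both conditions, while replicates 2 and 3 stood at 1.28 and 2.97 CPM without and 2.25 and 2.94 CPM with CpG. Again HG3 did not overlap the other lines, which overlapped each other. The counts pooled over unstimulated libraries, 154 in MEC2 and 1 in HG3, give a ratio of 168 (95% counting interval 29.7 to 6665) after scaling, and the 275 counts of PCL12 give 277 (49.2 to 10962). Both differences passed the test (adjusted p = 0.000269 and 8.50e-05), the second also without PCL12 replicates 2 and 3 (adjusted p = 0.000710). The HG3 count came from replicate 3, and without that library HG3 stood at 0 and no ratio can be formed. With any other library left out the fitted log2 difference ran from 6.27 to 7.22 for MEC2 and from 7.02 to 7.96 for PCL12, and each of these fits called it. After CpG, the ratios were 36.7 (15.4 to 114) for MEC2 and 64.9 (27.6 to 201) for PCL12. These rest on HG3 replicate 1, which held all 5 HG3 counts and without which HG3 stood at 0. With any other library left out, the fitted log2 difference ran from 4.47 to 5.78 for MEC2 and from 5.35 to 6.03 for PCL12, and every such fit called it (adjusted p at most 0.00634 and 0.00321).

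TRIM13 (ENSG00000204977, chr13:49995888-50020481) encodes a RING-type ubiquitin ligase of the endoplasmic reticulum and was low but plainly detected in HG3. Unstimulated HG3 held 2.31, 1.91 and 2.00 CPM and CpG-stimulated HG3 3.09, 2.87 and 2.59 CPM, from 513 counts in the 6 libraries. MEC2 held 17.2, 12.98 and 15.7 CPM without stimulation and 13.6, 19.6 and 17.98 CPM after CpG. In PCL12 replicate 1 the levels were 12.7 and 18.6 CPM, and replicates 2 and 3 were at 14.9 and 16.5 CPM without and 18.8 and 17.0 CPM with CpG. The highest HG3 library lay below the lowest of the other lines, and the HG3 mean was 15.2% of the MEC2 mean and 15.7% of that of PCL12 replicate 1. The unstimulated differences were 2.88 ± 0.31 for MEC2 (SE, adjusted p = 3.07e-07) and 2.82 ± 0.31 for PCL12 (adjusted p = 4.32e-07) on the log2 scale. Without PCL12 replicates 2 and 3 the PCL12 difference was 2.62 (adjusted p = 0.000425). TRIM13 shares 8.52% of its exon bases with DLEU2 on the opposite strand, and as the strand setting of the counting is not given, reads of the pair may have been shared. HG3 kept a larger share of the MEC2 level for TRIM13 than for DLEU2 or DLEU1, a comparison of shares that was not tested.

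KCNRG (ENSG00000198553, chr13:50015254-50020922), which encodes a regulator of voltage-gated potassium channels, had no count in any HG3 library. In unstimulated cells, the MEC2 libraries held 5, 0 and 14 counts and the PCL12 libraries 1, 4 and 22. After CpG the counts were 9, 4 and 0 in MEC2 and 38, 8 and 5 in PCL12. A floor of 3 counts over the HG3 group lay 6.90-fold below the pooled level of unstimulated MEC2 and 9.05-fold below that of PCL12, with lower 95% counting limits of the ratios to HG3 of 5.08 and 6.87. Neither difference passed the test by edgeR (adjusted p = 0.108 and 0.0901), and limma-voom called the one for PCL12 (adjusted p = 0.0391). Replicate 3 held most of these counts, and without it the ratios to the floor were 2.89 in MEC2 and 2.89 in PCL12. PCL12 replicate 1 alone held 1 count, or 0.0321 CPM against a floor of 0.0292 CPM (adjusted p = 0.689 without PCL12 replicates 2 and 3). After CpG the ratios to the floor were 4.70 and 13.2, with lower limits of 3.31 and 10.4 (adjusted p = 0.151 and 0.0665). Without replicate 1 they were 2.25 and 7.15, and without PCL12 replicates 2 and 3 the adjusted p for PCL12 was 0.188. With all libraries the PCL12 difference was called by DESeq2 (adjusted p = 0.0347), by limma-voom (adjusted p = 0.00240) and by edgeR with the compared groups alone (adjusted p = 0.0396). KCNRG shares 66.8% of its exon bases with TRIM13 on the same strand, so how reads were divided between these genes is uncertain. DLEU7 (ENSG00000186047, chr13:50519364-50843939), a coding gene inside the span of DLEU1 on the opposite strand, had 3 counts in unstimulated HG3 replicate 3, 9 in CpG-stimulated PCL12 replicate 1 and none elsewhere. Differences in DLEU7 between the lines were not detectable at this depth.

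**Figure D1:**
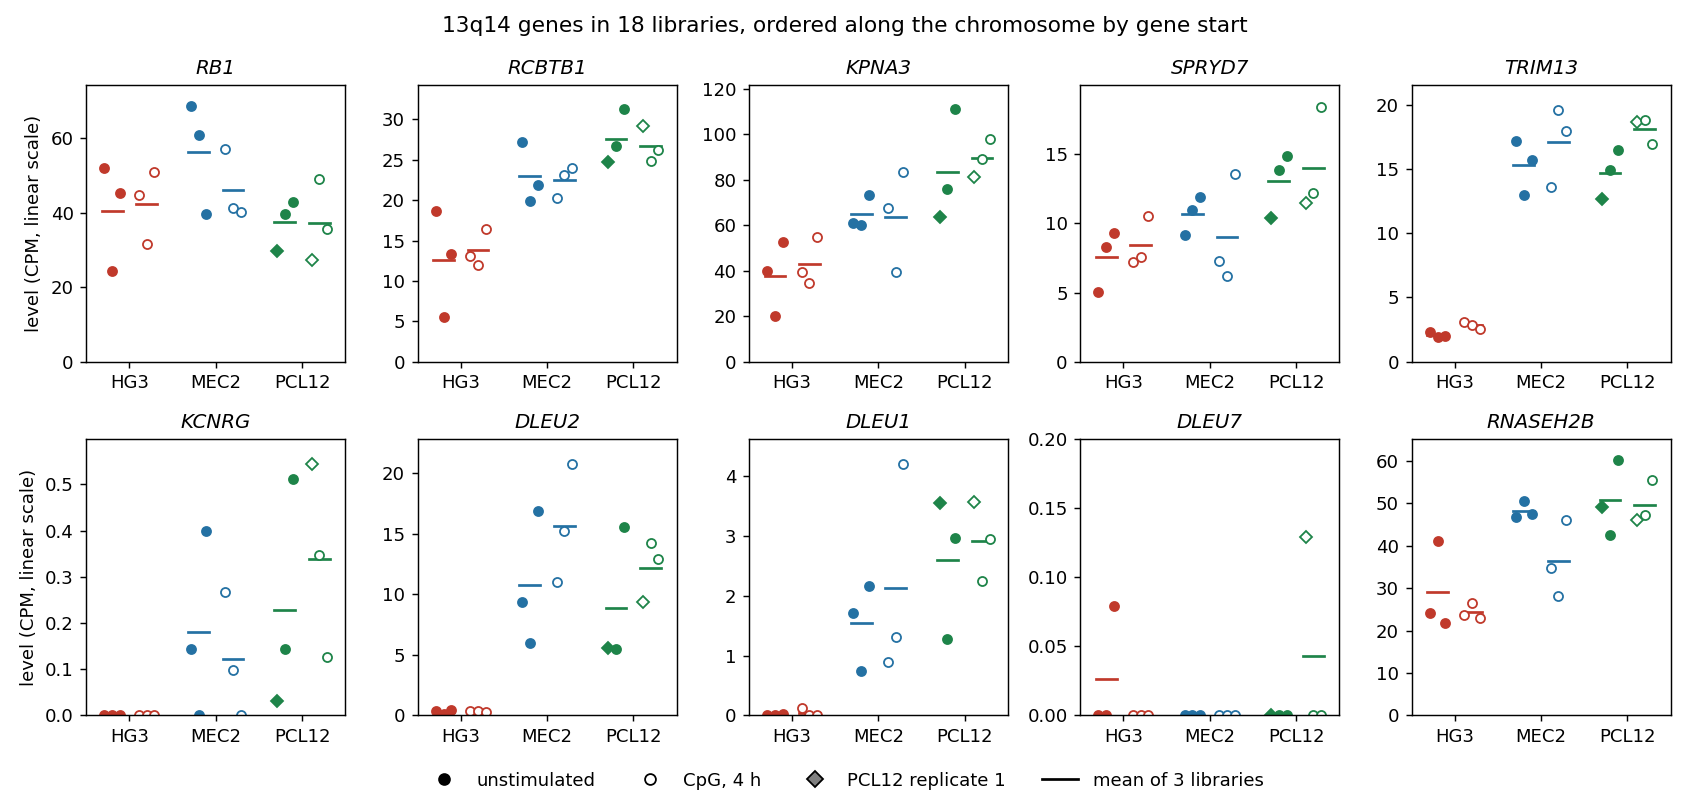
Level of each of the 10 genes (y axis, CPM, linear scale from 0, a different range in each panel) in HG3, MEC2 and PCL12. Points are single libraries, filled without and open with CpG, diamonds mark PCL12 replicate 1, lines mark the mean of 3 libraries, and in the panels of DLEU2, DLEU1, TRIM13 and RCBTB1 all HG3 points lie below all others.

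The flanking genes were expressed in all 18 libraries, HG3 included. SPRYD7 (chr13:49912702-49936490), a gene for a SPRY-domain protein, is the nearest measured gene on the centromere side of TRIM13 among the 10. It held 5.06, 8.31 and 9.29 CPM in unstimulated HG3, 9.17, 10.98 and 11.9 CPM in MEC2 and 10.4, 13.9 and 14.8 CPM in PCL12. After CpG these were 7.22, 7.59 and 10.5, 7.30, 6.23 and 13.5, and 11.4, 12.2 and 18.4 CPM. HG3 and MEC2 overlapped in both conditions, and no difference of SPRYD7 passed the test (unstimulated Log2FC 0.50, adjusted p = 0.414 for MEC2 and 0.79, adjusted p = 0.190 for PCL12). The PCL12 value was 0.47 (adjusted p = 0.813) without PCL12 replicates 2 and 3. The HG3 mean was 81.1% of that of MEC2 and 73.2% of that of PCL12 replicate 1.

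KPNA3 (chr13:49699320-49792682) encodes importin alpha-4, an adaptor that carries proteins into the nucleus. Unstimulated levels were 39.9, 20.01 and 52.8 CPM in HG3, 60.9, 60.01 and 73.3 CPM in MEC2, and 63.6, 75.9 and 111 CPM in PCL12. After CpG they were 39.5, 34.5 and 54.7 CPM in HG3, 67.8, 39.4 and 83.5 CPM in MEC2, and 81.5, 89.3 and 98.0 CPM in PCL12. HG3 lay below PCL12 without overlap and overlapped CpG-stimulated MEC2. The unstimulated difference to PCL12 was 1.15 ± 0.31 (SE, log2, adjusted p = 0.0159) and that to MEC2 0.78 ± 0.31 (adjusted p = 0.123). The PCL12 call was lost without PCL12 replicates 2 and 3 (0.76, adjusted p = 0.527), without unstimulated HG3 replicate 2 (0.88, adjusted p = 0.0633) and without unstimulated PCL12 replicate 3 (0.92, adjusted p = 0.0967). The MEC2 difference was called without unstimulated HG3 replicate 3 (1.11, adjusted p = 0.0360) and with the replicate block (0.86, adjusted p = 0.0249). After CpG the difference to PCL12 was 1.06 (adjusted p = 0.0289), a call lost without PCL12 replicates 2 and 3 (0.91, adjusted p = 0.348) and when CpG-stimulated HG3 replicate 1 or 2 or PCL12 replicate 2 or 3 was left out (adjusted p = 0.0557 to 0.152).

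RCBTB1 (chr13:49531946-49585558), a gene for a protein with RCC1 repeats and a BTB domain, was the one flanking gene of the 10 for which all HG3 libraries lay below all others. The unstimulated HG3 levels were 18.6, 5.57 and 13.4 CPM, with the lowest in the library rich in mitochondrial reads, against 27.2, 19.9 and 21.8 CPM in MEC2 and 24.7, 26.7 and 31.3 CPM in PCL12. After CpG the levels were 13.1, 11.97 and 16.4 CPM in HG3, 20.2, 23.1 and 24.0 CPM in MEC2, and 29.2, 24.8 and 26.2 CPM in PCL12. HG3 stood at 58.0% of MEC2 and 48.9% of PCL12 replicate 1. The unstimulated difference was 1.13 ± 0.32 to PCL12 (SE, log2, adjusted p = 0.0200) and 0.87 ± 0.31 to MEC2 (adjusted p = 0.0858). The MEC2 difference was called without unstimulated HG3 replicate 1 (1.29, adjusted p = 0.0114), by DESeq2 (0.86, adjusted p = 0.0278) and with the replicate block (0.92, adjusted p = 0.0494). After CpG the difference to PCL12 was 0.95 ± 0.31 (adjusted p = 0.0602), and 8 alternatives with all libraries called it (adjusted p = 0.00969 to 0.0486), among them DESeq2 and limma-voom. The PCL12 call was lost without PCL12 replicates 2 and 3 (0.98, adjusted p = 0.370), without unstimulated HG3 replicate 2 (0.81, adjusted p = 0.0581), without unstimulated PCL12 replicate 3 (1.052, adjusted p = 0.0673) and with HG3 and PCL12 fitted alone (1.13, adjusted p = 0.0945).

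RNASEH2B (chr13:50909747-51024120) lies on the telomere side and encodes a subunit of RNase H2, which removes ribonucleotides from DNA. Unstimulated HG3 held 24.1, 41.2 and 21.8 CPM, MEC2 46.8, 50.6 and 47.4 CPM, and PCL12 49.2, 42.6 and 60.3 CPM. After CpG the levels were 23.7, 26.5 and 23.02 CPM in HG3, 34.8, 28.2 and 46.2 CPM in MEC2, and 46.1, 47.3 and 55.5 CPM in PCL12. HG3 lay below both other lines within each condition, but unstimulated HG3 replicate 2 lay above CpG-stimulated MEC2 replicates 1 and 2. In unstimulated cells the difference was 0.81 ± 0.26 to PCL12 (SE, log2, adjusted p = 0.0483), and after CpG 1.02 ± 0.26 (adjusted p = 0.0104). Without PCL12 replicates 2 and 3 both calls were lost, at 0.78 (adjusted p = 0.414) and 0.90 (adjusted p = 0.300). The CpG call was also lost without CpG-stimulated PCL12 replicate 3 (0.94, adjusted p = 0.0524) or HG3 replicate 3 (0.98, adjusted p = 0.0529). The unstimulated call was close to the threshold and was also lost when any 1 of 5 of the 6 unstimulated HG3 and PCL12 libraries was left out, the exception being HG3 replicate 2 (for instance 0.67, adjusted p = 0.201 without PCL12 replicate 3). It was lost as well with RLE factors (0.75, adjusted p = 0.0804), with no filter (0.82, adjusted p = 0.0636) and with the compared groups alone (0.81, adjusted p = 0.178). To MEC2 the unstimulated difference was 0.74 ± 0.26 (adjusted p = 0.0755), and it passed the test without unstimulated HG3 replicate 2 (1.09, adjusted p = 0.00458), with library totals (0.86, adjusted p = 0.0341) and by limma-voom (0.85, adjusted p = 0.0328).

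RB1 (chr13:48303744-48599436), whose protein holds back E2F factors and the entry into S phase, was expressed in all 18 libraries. Its level ran from 24.5 to 52.1 CPM in HG3 (median 44.9), from 39.6 to 68.5 CPM in MEC2 (median 49.1) and from 27.4 to 49.1 CPM in PCL12 (median 37.7). In PCL12 replicate 1 it was 29.7 CPM without and 27.4 CPM with CpG, so that HG3 stood at 146% of these libraries and at 81.0% of MEC2. All lines overlapped. The unstimulated log2 differences to HG3 were 0.47 ± 0.30 for MEC2 (SE, adjusted p = 0.356) and -0.12 ± 0.30 for PCL12 (adjusted p = 0.905), and the sign of the second turned with scaling by library totals (0.035). The second was -0.45 (adjusted p = 0.770) without PCL12 replicates 2 and 3.

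Counted together, 3 of the 10 genes were called higher in unstimulated MEC2 than in HG3 (adjusted p under 0.05), namely DLEU1, DLEU2 and TRIM13, where 4.81% of all tested genes were. Of genes that averaged 1 CPM or more, as 8 of the 10 did, 9.17% were. The count for unstimulated PCL12 against HG3 was 6, with RCBTB1, RNASEH2B and KPNA3 added (4.87% of all tested genes), and it was 3 without PCL12 replicates 2 and 3 and also 3 without unstimulated PCL12 replicate 3 alone. Among CpG-stimulated libraries, 3 genes were higher in MEC2 than in HG3 (4.61% of all tested genes) and 5 in PCL12 (4.49%), the latter DLEU1, DLEU2, TRIM13, RNASEH2B and KPNA3. That count, too, was 3 without PCL12 replicates 2 and 3 and 3 without CpG-stimulated PCL12 replicate 3 alone. None of the 10 was called lower than in HG3 in any of these 4 comparisons, in which 4.97%, 4.57%, 4.52% and 4.16% of all tested genes were. Between PCL12 and MEC2 none was called in either direction by edgeR, DESeq2 or limma-voom, without stimulation (2.05% of all tested genes called by edgeR) or after CpG (1.93%), and none had an unadjusted p under 0.05 there by edgeR, where 11% and 11.4% of all tested genes had. This was also so without PCL12 replicates 2 and 3, where edgeR called none and gave none an unadjusted p under 0.05. The log2 differences of PCL12 from MEC2 then included -0.96 ± 0.70 for DLEU2, -0.27 ± 0.51 for TRIM13 and -0.92 ± 0.47 for RB1 (SE, unstimulated, adjusted p = 0.793, 0.964 and 0.537), with 1 PCL12 library. The 4 genes DLEU1, DLEU2, TRIM13 and RCBTB1, for which HG3 lay below all 12 other libraries, stand beside 3.02% of all tested genes. The comparisons of MEC2 and PCL12 with HG3 share the HG3 libraries.

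By position, the 4 of the 10 genes with the lowest HG3 mean relative to MEC2, KCNRG, DLEU1, DLEU2 and TRIM13 (0 to 15.2%), adjoin each other. The share of KCNRG is uncertain, as it rests on 0 counts in HG3 against 32 in MEC2 and its difference was not called by edgeR. These 4 genes do not stand alone in this. Of 37 other genes within 5 Mb that averaged 1 CPM or more, 2 were at or below the share of TRIM13, RUBCNL (3.73%) and ARL11 (9.78%). Other genes that averaged less than 1 CPM, as KCNRG itself did, were not part of this comparison. The starts of TRIM13, KCNRG and DLEU1 lie 0.130, 0.110 and 0.0436 Mb before the start of DLEU2 in chromosome order, while SPRYD7, expressed in HG3, starts 0.189 Mb before it and RNASEH2B 0.784 Mb after it. Beyond the 10 genes, levels in HG3 also tended to be lower. The 8 of the 10 genes that averaged 1 CPM or more had median log2 differences of 0.83 for MEC2 and 1.14 for PCL12. Of these 8, 37.5% were called higher in unstimulated MEC2 and 75% in PCL12, against 40.5% and 32.4% of the 37 other genes given next. Of the 37 other chromosome 13 genes that start within 5 Mb of DLEU2 and averaged 1 CPM or more, 15 were called higher in unstimulated MEC2 than in HG3 and 1 lower, with a median log2 difference of 0.91, where 9.17% and 8.85% of all 13990 tested genes of that level were. In PCL12 12 were higher and 0 lower, with a median of 0.72 (9.14% and 8.14% of all such genes). Once PCL12 replicates 2 and 3 were left out, the PCL12 median of the 37 genes was 0.59 and that of the 8 genes was 0.88. Among the 191 genes of chromosome 13 farther away, the medians were 0.55 and 0.26, against 0 and 0.02 over all tested genes of that level. The PCL12 medians were 0.024 and -0.052 without PCL12 replicates 2 and 3. Chromosome 13 as a whole (236 such genes) had medians of 0.61 and 0.37, above those of each of the other 22 chromosomes compared, which ranged from -0.27 to 0.51 and from -0.77 to 0.28. Its PCL12 median was 0.14, below that of chromosome 14 (0.22), without PCL12 replicates 2 and 3.

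Among these 37 genes RUBCNL (chr13:46334681-46438190), a regulator of autophagy that starts at -3.69 Mb on the axis of the plot by position (0 being the DLEU2 start), had the highest difference for MEC2 and, after the pseudogene RCN1P2 (4.00), for PCL12. It was picked out after its values were seen. Unstimulated HG3 held 0.352, 11.2 and 1.42 CPM in replicates 1, 2 and 3, MEC2 94.5, 85.8 and 97.9 CPM, and PCL12 63.8, 61.4 and 65.3 CPM, so HG3 lay below both without overlap and was uneven. The difference was 4.48 ± 0.93 to MEC2 (SE, log2, adjusted p = 0.00696) and 3.93 ± 0.91 to PCL12 (adjusted p = 0.0140), between the values of TRIM13 and DLEU2. With 1 library left out it ran from 3.89 to 6.75 for MEC2 and from 3.34 to 6.21 for PCL12, the highest without HG3 replicate 2, the library rich in mitochondrial reads. The PCL12 call was lost without HG3 replicate 3 (3.50, adjusted p = 0.0584) and without PCL12 replicates 2 and 3 (3.96, adjusted p = 0.184), and both calls when the compared groups were fitted alone (4.48, adjusted p = 0.224 and 3.91, adjusted p = 0.266).

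**Figure D2:**
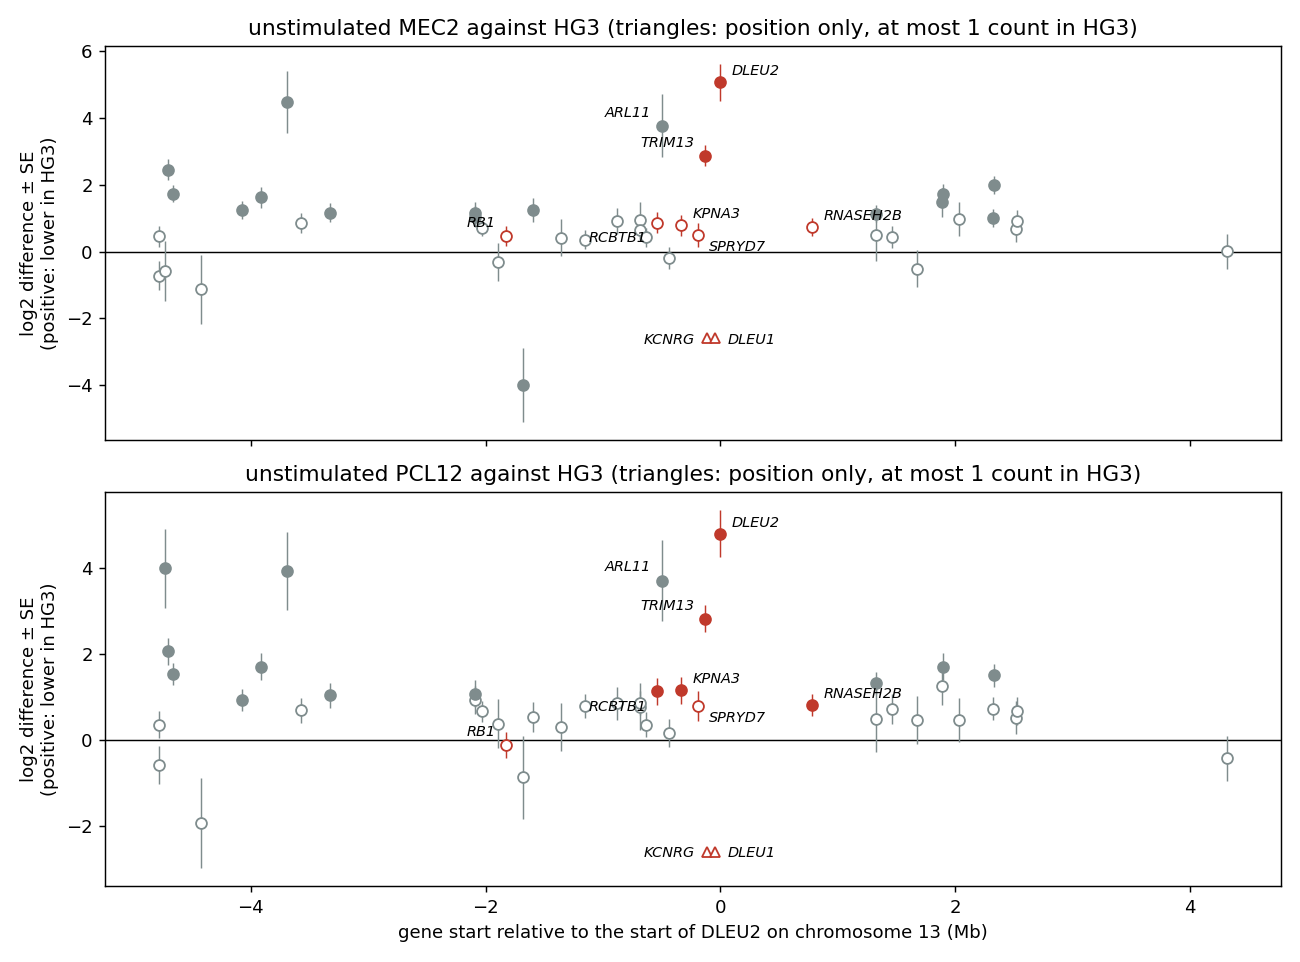
Log2 difference of MEC2 (top) and PCL12 (bottom) from HG3 in unstimulated cells, with SE, against the distance of the gene start from that of DLEU2 (x axis, Mb), for chromosome 13 genes averaging 1 CPM or more and the 10 genes except DLEU7. Red marks the 10 genes, filled points have an adjusted p under 0.05, triangles give only the position of KCNRG and DLEU1, and DLEU2 lies at 5.07 and 4.79, TRIM13 at 2.88 and 2.82 and the neighbour RUBCNL, at -3.69 Mb, at 4.48 and 3.93.

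A list of 30 named neighbours of 13q14 was followed further. Of these, 28 could be tested, and 9 were called higher and 1 lower in unstimulated MEC2 than in HG3 (median log2 difference 0.97), against 5 higher and 0 lower in PCL12 (median 0.75). Over all tested genes, 4.81% were higher and 4.97% lower in MEC2, and 4.87% and 4.57% in PCL12. These calls all fell on the 21 neighbours that averaged 1 CPM or more. Of all genes of that level, 9.17% were higher and 8.85% lower in MEC2, and 9.14% and 8.14% in PCL12. Without PCL12 replicates 2 and 3 the median of the neighbours in PCL12 was 0.62, against -0.023 over all tested genes. ARL11 (chr13:49628507-49633872), a gene for a small GTPase-like protein between RCBTB1 and KPNA3, held 0 to 1.19 CPM in HG3 (median 0.492), 3.10 to 8.29 CPM in MEC2 (median 6.36) and 4.09 to 8.24 CPM in PCL12 (median 5.78). Its unstimulated difference was 3.77 ± 0.94 to MEC2 (SE, log2, adjusted p = 0.0113) and 3.71 ± 0.94 to PCL12 (adjusted p = 0.0129). Both calls were lost without unstimulated HG3 replicate 3 (3.48, adjusted p = 0.0666 and 3.42, adjusted p = 0.0749), and with any 1 library left out the differences ran from 3.28 to 5.42 and from 3.22 to 5.35. It lies outside the stretch from TRIM13 to DLEU2, with KPNA3 and SPRYD7, both expressed in HG3, in between.

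The other 4 neighbours called in both comparisons differed by less. CKAP2 (chr13:52455429-52476628), a protein of the mitotic spindle, had means of 24.9 CPM in HG3, 82.3 CPM in MEC2 and 60.9 CPM in PCL12. UTP14C (chr13:52024691-52033600), a retrogene related to ribosome assembly that may share reads with its parent UTP14A and with ALG11 around it, had means of 12.6, 36.9 and 34.3 CPM in the same order. INTS6 (chr13:51354077-51454264), a subunit of the Integrator complex, had means of 30.5, 69.6 and 80.9 CPM. SUCLA2 (chr13:47745736-48037968), a subunit of the mitochondrial succinyl-CoA ligase, had means of 22.9, 43.7 and 46.8 CPM. For these 5 neighbours HG3 lay below both other lines without overlap, as it did for 3.02% of all tested genes. They were chosen by their calls against HG3, so this partly restates the choice. Without PCL12 replicates 2 and 3 the call against PCL12 remained for INTS6 (1.28). It was lost for CKAP2 (1.19), UTP14C (1.36), ARL11 (3.98) and SUCLA2 (0.65). The SUCLA2 calls also fell short without unstimulated HG3 replicate 2 (0.84, adjusted p = 0.126 for MEC2 and 0.87, adjusted p = 0.106 for PCL12) or HG3 replicate 3 (adjusted p = 0.0589 and 0.0546), without MEC2 replicate 3 (adjusted p = 0.229), without PCL12 replicate 3 (adjusted p = 0.165), with the compared groups alone (adjusted p = 0.0698 and 0.0588) and, for MEC2, with limma-voom (adjusted p = 0.0624).

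No response to CpG was called at 13q14. Within each line, none of the 10 genes was called between CpG-stimulated and unstimulated cells by edgeR, DESeq2 or limma-voom, where 0.00314% of all tested genes were called in HG3, 0.00314% in MEC2 and 0% in PCL12. None passed the paper's definition of a DEG (nominal P under 0.01 and |Log2FC| of at least 1) with the P values of edgeR, where 0.496%, 0.251% and 0.116% of all tested genes did. None had an unadjusted p under 0.05, where 3.73%, 2.46% and 2.09% did. These were 158, 80 and 37 genes by the definition, and the paper, which used limma, reports several times as many in each line. With so few calls among all genes, their absence here says little about the 10 genes. None was called in PCL12 without replicates 2 and 3, where TRIM13 had a Log2FC of 0.56 ± 0.61 and DLEU2 of 0.75 ± 0.81 from 1 library against 1, with the spread of the other groups. With all libraries, TRIM13 had a Log2FC of 0.46 ± 0.30 in HG3, 0.16 ± 0.29 in MEC2 and 0.30 ± 0.29 in PCL12 (SE, adjusted p = 1 in each by edgeR). Its CpG-stimulated libraries lay above the unstimulated ones without overlap in HG3 and PCL12, and overlapped them in MEC2. DLEU2 had a Log2FC of 0.01 ± 0.58 in HG3, 0.54 ± 0.45 in MEC2 and 0.45 ± 0.45 in PCL12, with overlapping libraries in each. A CpG-stimulated and an unstimulated library with the same number form a pair, and DLEU2 was higher after CpG in 3 of 3 pairs of MEC2, in 2 of 3 of PCL12 (not in replicate 3, with 15.6 CPM without and 12.9 CPM with CpG) and in 1 of 3 of HG3. With these pairs as a block its Log2FC was 0.62 in MEC2 and 0.61 in PCL12 (adjusted p = 1 in each), and none of the 10 genes was called. RNASEH2B had a Log2FC of -0.41 ± 0.26 in MEC2, where its CpG-stimulated libraries lay below the unstimulated ones, and of -0.25 ± 0.26 in HG3 and -0.03 ± 0.26 in PCL12.

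**Figure D3:**
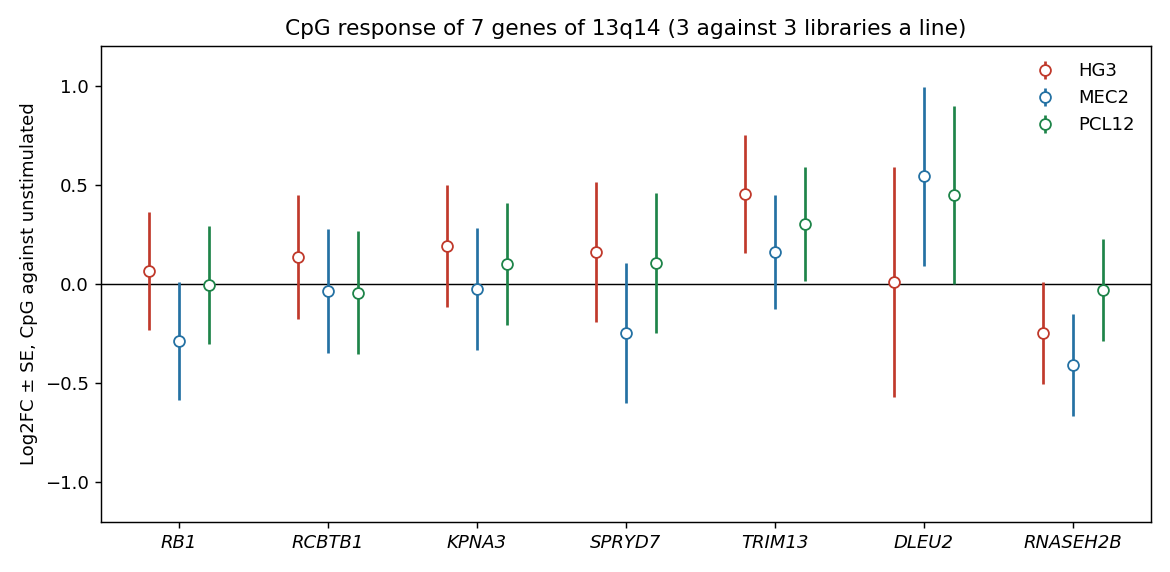
Log2FC with SE between CpG-stimulated and unstimulated cells (y axis) for 7 genes of 13q14 in HG3, MEC2 and PCL12, 3 against 3 libraries a line. DLEU1, KCNRG and DLEU7 are left out for low counts in HG3, and no value passed the test, the TRIM13 values being 0.46, 0.16 and 0.30.

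The gap between HG3 and the other lines was also present after CpG. DLEU2 was then higher than in HG3 by 5.60 ± 0.57 in MEC2 (SE, log2, adjusted p = 1.05e-07) and by 5.23 ± 0.56 in PCL12 (adjusted p = 2.67e-07), and TRIM13 by 2.58 ± 0.31 (adjusted p = 1.20e-06) and 2.67 ± 0.31 (adjusted p = 7.78e-07). The median over all tested genes was itself 0.11 in the CpG-stimulated comparison of PCL12 with HG3, and 0 in that of MEC2. Without PCL12 replicates 2 and 3, DLEU2 differed by 4.84 and TRIM13 by 2.69 (adjusted p = 6.84e-06 and 0.000268).

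As the products of DLEU2 lower other mRNAs, 15 genes described as targets of miR-15 and miR-16 were examined. They did not move together. In unstimulated cells, 3 were called higher and 3 lower in MEC2 than in HG3, with a median log2 difference of 0.16, and 2 higher and 1 lower in PCL12, with a median of -0.22. All 15 averaged 1 CPM or more, and of all genes of that level 9.17% were higher and 8.85% lower in MEC2, and 9.14% and 8.14% in PCL12. Without PCL12 replicates 2 and 3 the median of the 15 in PCL12 was -0.40, against -0.052 over all genes of that level. Calls are not counted there, as that fit holds 1 PCL12 library a group. BCL2, an inhibitor of apoptosis and the best known target, is given although it was outside the naming rule, and had a mean of 276 ± 187 CPM in HG3 (SD, n = 3 libraries), 170 ± 45.6 CPM in MEC2 and 132 ± 55.2 CPM in PCL12. Its differences did not pass the test (-0.70, adjusted p = 0.403 and -1.06, adjusted p = 0.207 on the log2 scale) and the libraries of the lines overlapped. In MEC2 the genes called lower than in HG3 were ROR1, CCND2 and CDK6, and those called higher were CDC25A, CCND3 and CCNE1. In PCL12 the calls were ROR1, lower, and CDC25A and CCND1, higher.

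ROR1, a receptor found on CLL cells, ran from 2.22 to 30.5 CPM in HG3 (median 12.4), up to 0.372 CPM in MEC2 and up to 1.08 CPM in PCL12, with no overlap. Unstimulated HG3 itself was uneven, with 11.6, 2.22 and 30.5 CPM in replicates 1, 2 and 3, the lowest again in the library rich in mitochondrial reads. CDC25A, a phosphatase that drives the cell cycle, was in contrast lower in HG3, with 26.8 to 46.7 CPM (median 40.6) against 54.3 to 126 CPM in MEC2 and 59.1 to 102 CPM in PCL12. Neither call against PCL12 remained without PCL12 replicates 2 and 3 (-5.38, adjusted p = 0.269 for ROR1 and 0.77, adjusted p = 0.494 for CDC25A). The CDC25A call against PCL12 was also lost without unstimulated HG3 replicate 2 or 3 (adjusted p = 0.140 and 0.0958) or PCL12 replicate 3 (0.75, adjusted p = 0.214), and that against MEC2 without MEC2 replicate 3 (1.01, adjusted p = 0.0592). With the compared groups alone, ROR1 was not called against MEC2 (-6.68, adjusted p = 0.0516) nor CDC25A against PCL12 (0.9976, adjusted p = 0.0633), and limma-voom did not call CDC25A there (0.97, adjusted p = 0.0636).

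**Figure D4:**
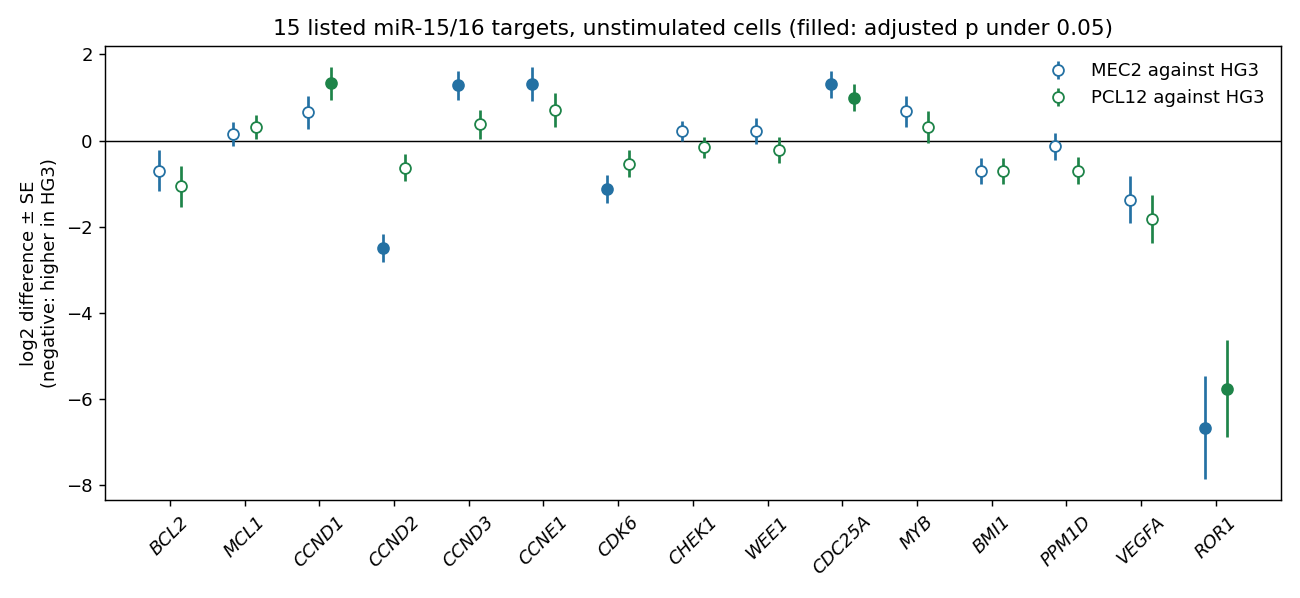
Log2 difference with SE of 15 listed targets of miR-15 and miR-16 in unstimulated MEC2 (blue) and PCL12 (green) against HG3, negative values being higher in HG3. Filled points have an adjusted p under 0.05, and the list divides on both sides of 0, with medians of 0.16 and -0.22.

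A list of 12 partners and relatives of the 10 genes (RB family and E2F genes, the other RNase H2 subunits, importins, SMC4 and DLEU2L) had 3 genes called higher and 1 lower in unstimulated MEC2 than in HG3, and 1 higher and 1 lower in PCL12. All 12 averaged 1 CPM or more, so the shares over all genes of that level given above for the targets apply, and 1 of 12 is near them. The median log2 difference of the 12 in PCL12 was 0.48, against 0.016 over all genes of that level. Without PCL12 replicates 2 and 3 these medians were 0.057 and -0.052. E2F1, an activator of S-phase genes that RB1 holds back, ran from 34.8 to 55.5 CPM in HG3, from 86.8 to 194 CPM in MEC2 and from 80.7 to 109 CPM in PCL12, without overlap with HG3. RBL2, which encodes the RB relative p130, was higher in HG3, with 84.5 to 121 CPM against 53.1 to 68.7 CPM in MEC2 and 42.6 to 54.7 CPM in PCL12. Without PCL12 replicates 2 and 3, neither was called against PCL12 (1.09, adjusted p = 0.119 and -1.21, adjusted p = 0.0861). The E2F1 call against PCL12 was also lost without unstimulated HG3 replicate 3 (0.87, adjusted p = 0.0631), and the RBL2 call against MEC2 when any 1 unstimulated HG3 or MEC2 library other than HG3 replicate 2 was left out (-0.77 to -0.58, adjusted p = 0.0692 to 0.145). The latter was lost as well with library totals (-0.61, adjusted p = 0.0853), with no filter (-0.73, adjusted p = 0.0903) and with the compared groups alone (-0.72, adjusted p = 0.163).

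Across the 18 libraries, TRIM13 had the fourth highest correlation with DLEU2 (r = 0.979, log2 CPM, prior count 2) among the 13989 genes that averaged 1 CPM or more, and DLEU1 stood at rank 62 (r = 0.949). Reads may be shared between TRIM13 and DLEU2, as given above. The other genes of the first 5 were CEND1, SLC6A6, IGKJ3 and THAP10 (r = 0.981, 0.981, 0.980 and 0.977), which lie on chromosomes 11, 3, 2 and 15. All were lower in HG3 than in the other lines, for instance CEND1 with means of 0.0160 CPM in HG3, 27.8 CPM in MEC2 and 24.2 CPM in PCL12. The libraries form 3 lines and share their depth and scaling, so the correlations mainly describe the gap between HG3 and the others.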

How the data were processed

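RNA from HG3, MEC2 and PCL12 cells, CpG-stimulated or not, was sequenced in 18 libraries. The authors deposited raw gene counts, made per the labels with FastQC, MultiQC, Trimmomatic, STAR and featureCounts on hg38. Their versions, the strand setting, the annotation and what was done with duplicate reads are not given in the sources used here. The labels name a Lexogen QuantSeq library kit and the paper a stranded reverse protocol. Groups, replicates and columns were taken from the labels, and no column was left out.

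The deposited counts were analysed in R 4.3.3 with edgeR 4.0.16. Genes with at least 10 summed counts were kept, TMM factors were used, and 1 quasi-likelihood fit held all 6 group means (12 residual degrees of freedom). P values were adjusted over all 31872 tested genes by the Benjamini-Hochberg method. The quasi-likelihood test gives no SE. Each SE of a log2 difference is its absolute value divided by the square root of the F statistic, which is approximate. Ratios of counts of 5 or fewer have exact 95% counting intervals. The steps were tested on simulated data. Alternatives were DESeq2 1.42.0, limma-voom (limma 3.58.1), RLE factors, library totals, filterByExpr, no filter, the compared groups alone, a replicate block, each library left out in turn, and the fit without PCL12 replicates 2 and 3, which takes the spread of the lone PCL12 library from the other groups.

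Named were the 10 genes, the neighbours, targets and partners with an adjusted p under 0.05 and 1 sign in both unstimulated comparisons with HG3, and the 5 genes most correlated with DLEU2. BCL2, the other called targets and RUBCNL were added after values were seen, and 1 further listed target is not reported here. The 10 genes and all lists were chosen with earlier results of these data known. Gene positions are those of GENCODE 44. The series' description states that a replicate held 1 stimulated and 1 unstimulated sample, which pairs libraries within a line.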

Additional observations from a re-analysis of the deposited data

How the results depend on the processing

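None of the 10 genes that was called changed direction under any alternative. Counts of the 10 genes called per direction were above 0 only for genes higher than in HG3. These were 3 in MEC2 and 6 in PCL12 without stimulation, and 3 and 5 after CpG. Most comparisons with another setting therefore started from a count of 0, so the share that stayed says little about the calls. Of 154 such comparisons, 151 stayed within 1.5 times. The others were 5 genes higher in unstimulated MEC2 than in HG3 with the replicate block, in place of 3, and, without PCL12 replicates 2 and 3, 3 genes higher in PCL12 than in HG3 in place of 6 without stimulation and 3 in place of 5 after CpG. That fit holds 1 library in each PCL12 group, and a lost call there does not show a smaller difference. With 1 library left out in turn, the count for PCL12 against HG3 ran from 3 to 5 without stimulation. After CpG it ran from 3 to 5. Across lines, the deviations of same-numbered libraries had correlations of -0.114 to 0.202. Within lines, where the same number marks a pair, they ran from -0.0785 to 0.327. As the ranges overlap, they cannot decide whether libraries of different lines with the same number share anything. The replicate block across lines added RCBTB1 (adjusted p = 0.0494) and KPNA3 (0.0249) in MEC2. The paired block within lines left the CpG calls at 0.

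For single genes, 504 of 552 values under other settings kept their direction and side of the threshold, 29 lost and 17 gained a call, and 2 turned sign, none of them called: RB1 in unstimulated PCL12 against HG3 with library totals (0.035) and SPRYD7 in CpG-stimulated MEC2 against HG3 with limma-voom (-0.034). With 1 library left out, 344 of 390 kept direction and side, 34 lost and 3 gained a call, and 9 turned sign. Of those, the log2 differences ran from -0.35 to 0.12 (RB1, unstimulated PCL12 against HG3), -0.94 to 0.21 (DLEU2) and -0.15 to 0.032 (TRIM13, both unstimulated PCL12 against MEC2), -0.32 to 0.30 (SPRYD7) and -0.062 to 0.27 (RB1, both CpG-stimulated MEC2 against HG3). The cause of these shifts was not tested. Depth limits KCNRG and DLEU7, and a level under 0.0429 to 0.155 CPM cannot be told from 0.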
